A study of Homo sapiens with 6 samples.

Results

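The genes described are 32 genes of the lysosome, taken by name from the 60843 genes of the deposited count table. They are 7 peptidases, 8 genes of sphingolipid breakdown, 7 enzymes of glycosaminoglycan breakdown, 4 enzymes of glycan or glycogen breakdown, 4 membrane proteins with the luminal cholesterol carrier NPC2, and the transcription factor TFEB. The libraries came from BJ cells, an established line of human foreskin fibroblasts, collected during a chemical protocol that by the series' title turns them into cells called FiNs. Bulk RNA was sequenced from 6 libraries, 2 for each of 3 days, and all of them are labelled as wild type. The day 2 and day 5 cells had been moved from serum-containing DMEM on poly-D-lysine to media for neuronal induction (to day 2) and neuronal maturation (from day 2 to day 5), each with 10 µM forskolin, a plant compound that activates adenylyl cyclase. The day 0 cells were the starting fibroblasts, grown in DMEM with serum. Time, medium and drug changed together and cannot be told apart, since neither cells given the new media alone nor cells left in the old medium for as long were analysed here. Whether libraries of the same day stem from independent cultures is not stated in the labels. The p-values therefore reflect the spread among these libraries alone, and that spread may be technical.

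The lysosome is the acidic compartment in which cells take apart proteins, glycans, glycogen and lipids delivered by endocytosis and autophagy. Its soluble hydrolases are made in the endoplasmic reticulum and carried there mainly through the mannose 6-phosphate tag, and its limiting membrane is lined by heavily glycosylated proteins such as LAMP1 and LAMP2. Many of these genes carry a short palindrome near their start, the CLEAR element, that TFEB and its relatives TFE3 and MITF bind. Inherited loss of single enzymes of this set causes lysosomal storage disease, and several of these diseases affect the nervous system.

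The CLEAR element was looked for in the RefSeq promoter table (GRCh38.p14), in windows of 300 bases, 250 before and 50 after each listed start. The table held 22 of the 32 genes. ARSA, ASAH1, CTSB, CTSK, HEXA, LAMP2, MANBA, NAGLU, PSAP and SGSH had no entry. The E-box CACGTG, which is its own reverse complement and so reads alike on both strands, was found at 8 of the 22 genes (36.4%), against 8.77% of 27305 genes with a promoter in the table and 12.3% of the 11257 of those that passed the count filter described below. Its extension TCACGTGA contains the E-box, is also a palindrome, and was found at 5 genes (22.7%), against 1.18% and 2.11%. The longest form, GTCACGTGAC, contains both and was found at GAA, GALNS and MCOLN1 (13.6%), against 0.421% and 0.817%. The cAMP response element in its full form TGACGTCA, searched because forskolin acts through cAMP, was found at 0 of the 22 genes, against 2.25% and 3.78%. With so few genes and such low shares, that count does not set these genes apart. Shorter forms of this element were not searched. The windows of these genes were richer in G and C than most, with a median GC content of 70.2% against 64.3%. The matches describe letters in a window and are not measured binding sites.

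The following windows show 1 match for each gene with an E-box other than LAMP1, and both long matches of GAA, 5′ to 3′ on the gene's strand, with 12 bases on each side. Capitals mark the longest of the 3 motifs at that place, and positions count from the start site to the motif's first base.
MCOLN1, chr19:7522596-7522629, plus strand, motif from -16: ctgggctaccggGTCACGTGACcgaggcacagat
GAA, chr17:80101491-80101524, plus strand, motif from -78: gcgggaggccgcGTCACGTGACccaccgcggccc
GAA, chr17:80101536-80101569, plus strand, motif from -33: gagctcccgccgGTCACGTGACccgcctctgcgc
GALNS, chr16:88857102-88857135, minus strand, motif from -176: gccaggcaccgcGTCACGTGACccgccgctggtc
CTSA, chr20:45891297-45891328, plus strand, motif from -26: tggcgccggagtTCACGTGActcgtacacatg
CTSD, chr11:1763957-1763986, minus strand, motif from -47: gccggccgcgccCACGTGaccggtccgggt
NEU1, chr6:31862930-31862959, minus strand, motif from -126: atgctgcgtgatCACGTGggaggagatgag
ARSB, chr5:78986101-78986130, minus strand, motif from -160: taattcaataagCACGTGactaaaggattt
LAMP1 had 6 E-boxes in its window, more than any other of the 22 genes, and 2 of the 6 had the TCACGTGA form. Its 250 bases before the start are shown for this run of motifs. The capitals mark the 5 E-boxes that lie wholly before the start, of which the last is in the longer form.
LAMP1, chr13:113296989-113297238, plus strand: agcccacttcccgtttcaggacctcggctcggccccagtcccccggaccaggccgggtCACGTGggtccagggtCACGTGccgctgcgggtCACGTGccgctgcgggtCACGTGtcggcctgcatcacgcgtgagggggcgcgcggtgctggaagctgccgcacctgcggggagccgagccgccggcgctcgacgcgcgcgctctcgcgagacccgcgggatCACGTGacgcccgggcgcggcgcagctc

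**Figure D1:**
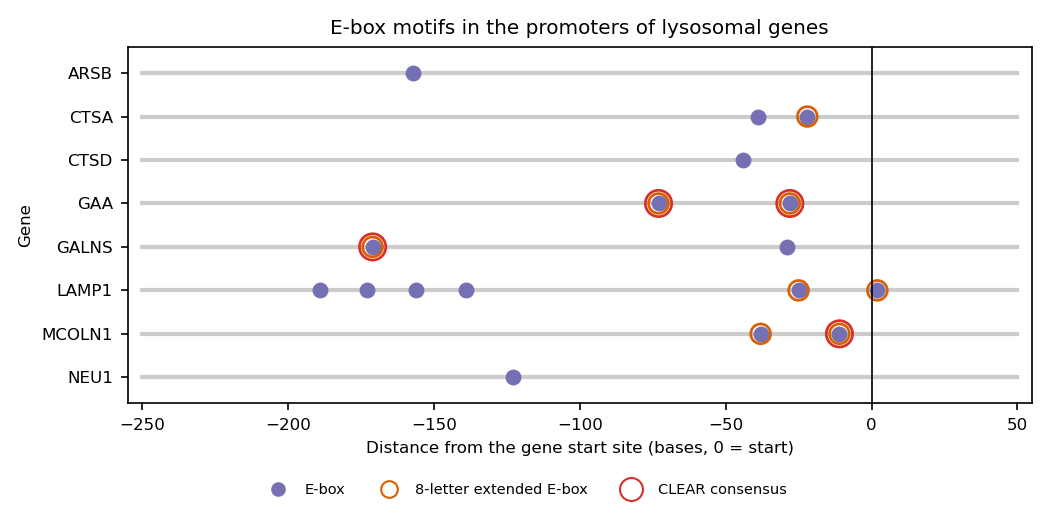
Position of each motif match in the promoter windows of the 8 genes with an E-box, as distance in bases from the start site (x axis), 1 row per gene and colour by motif, with each dot at the middle of a match. LAMP1 holds 6 matches and the long GTCACGTGAC form lies at MCOLN1, GAA and GALNS.

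The libraries held 17605858 to 27953926 expected counts, with those of day 5 the shallowest. Levels are given as CPM, the counts of a gene over a common library size, with TMM factors, so 3 counts correspond to 0.103 to 0.180 CPM. Of the 8 fibroblast markers, 8 were detected at each day, with summed levels of 18333 to 18694 CPM at day 0, 15331 to 15550.4 CPM at day 2 and 26546 to 27026 CPM at day 5. At day 5 against day 0, 3 of the 8 markers rose, 2 of them beyond 2-fold, and 5 fell, 3 of them beyond 2-fold. Their median log2 fold change was -0.45. Among all tested genes 35.8% rose and 34.1% fell in that comparison, with 9.74% higher and 10.3% lower beyond 2-fold. The day 2 and day 5 cells are labelled as induced neuron cells. Of 8 neuron markers, 4 (RBFOX3, DCX, ELAVL3 and STMN2) did not pass the filter on low counts, and STMN2 had no count in any library. The neuron list summed to 242 to 251 CPM at day 0, 149 to 156 CPM at day 2 and 106 to 111 CPM at day 5, mostly from TUBB3. Of its 4 tested markers, TUBB3 and MAP2 fell beyond 2-fold at day 5 against day 0 and SYN1 was not called. The lowest log2 fold change of the 4 was -3.92 and their median was -0.75. SNAP25 rose by a log2 fold change of 1.64, also beyond 2-fold. It had 18.3 ± 2.06 CPM at day 5 against 5.89 ± 0.180 CPM at day 0 (mean ± SD, n = 2 libraries). Cathepsins are also abundant in macrophages and osteoclasts. The 9 macrophage markers summed to 4.77 to 5.22 CPM at day 0, 5.33 to 7.29 CPM at day 2 and 1.14 to 1.36 CPM at day 5. PTPRC, AIF1 and TYROBP were at or under 3 counts in each library. Only 3 of the 9 could be tested, of which 1 rose and 2 fell beyond 2-fold at day 5 against day 0. The shares of all tested genes were 9.74% and 10.3%. These 3 calls rest on the low levels just given. The 5 osteoclast markers summed to 1.62 to 2.51 CPM at day 0, 4.12 to 4.91 CPM at day 2 and 1.56 to 2.18 CPM at day 5, with CALCR, OCSTAMP and DCSTAMP at 0.

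All 32 genes passed the filter on low counts, so each was tested in the 3 comparisons. At day 2 against day 0, 20 of the 32 (62.5%) rose and 9 (28.1%) fell at an adjusted p under 0.05, where 33.4% of the 16327 genes tested rose and 33.4% fell (edgeR quasi-likelihood test, Benjamini-Hochberg adjustment over all tested genes). The list's median log2 fold change was 0.19, against 0.00 for all tested genes. At day 5 against day 0 the balance was the other way: 10 rose (31.2%) and 17 fell (53.1%), where 35.8% of all tested genes rose and 34.1% fell, and the median was -0.15 against 0.04. Between day 5 and day 2, 22 of the 32 fell (68.8%) and 9 rose (28.1%), where 33.7% of all tested genes fell and 32.1% rose, with a median of -0.42 against 0.01. In either direction 66.8% of all tested genes were called at day 2 and 69.9% at day 5 against day 0, and 65.8% between day 5 and day 2, so a call by itself did not set a gene apart. When libraries were scaled by their totals without TMM factors, which lowers the median gene's log2 fold change by 0.18 and 0.21 at day 2 and day 5 against day 0, the counts became 15 higher and 12 lower at day 2 and 5 higher and 22 lower at day 5 against day 0. The medians of the 32 genes were then 0.000923 at day 2 and -0.35 at day 5 against day 0.

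A stricter test asked whether a change went beyond 2-fold (edgeR glmTreat, adjusted in the same way). At day 2 against day 0 it called CTSZ higher and MCOLN1 lower, which is 3.12% of the genes in each direction, against 6.99% and 5.54% of all genes. Between day 5 and day 0 it called CTSZ higher (3.12% of the genes, against 9.74% of all genes) and CTSD, CTSK, IDS, FUCA1 and NPC2 lower (15.6%, against 10.3%). Between day 5 and day 2 it called 0 genes higher, against 6.41% of all genes, and CTSA, CTSD, CTSK, ASAH1, IDS and NPC2 lower (18.8%, against 7.96%). In bulk RNA, fewer cells that express a gene and less of its RNA per cell cannot be told apart.

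**Figure D2:**
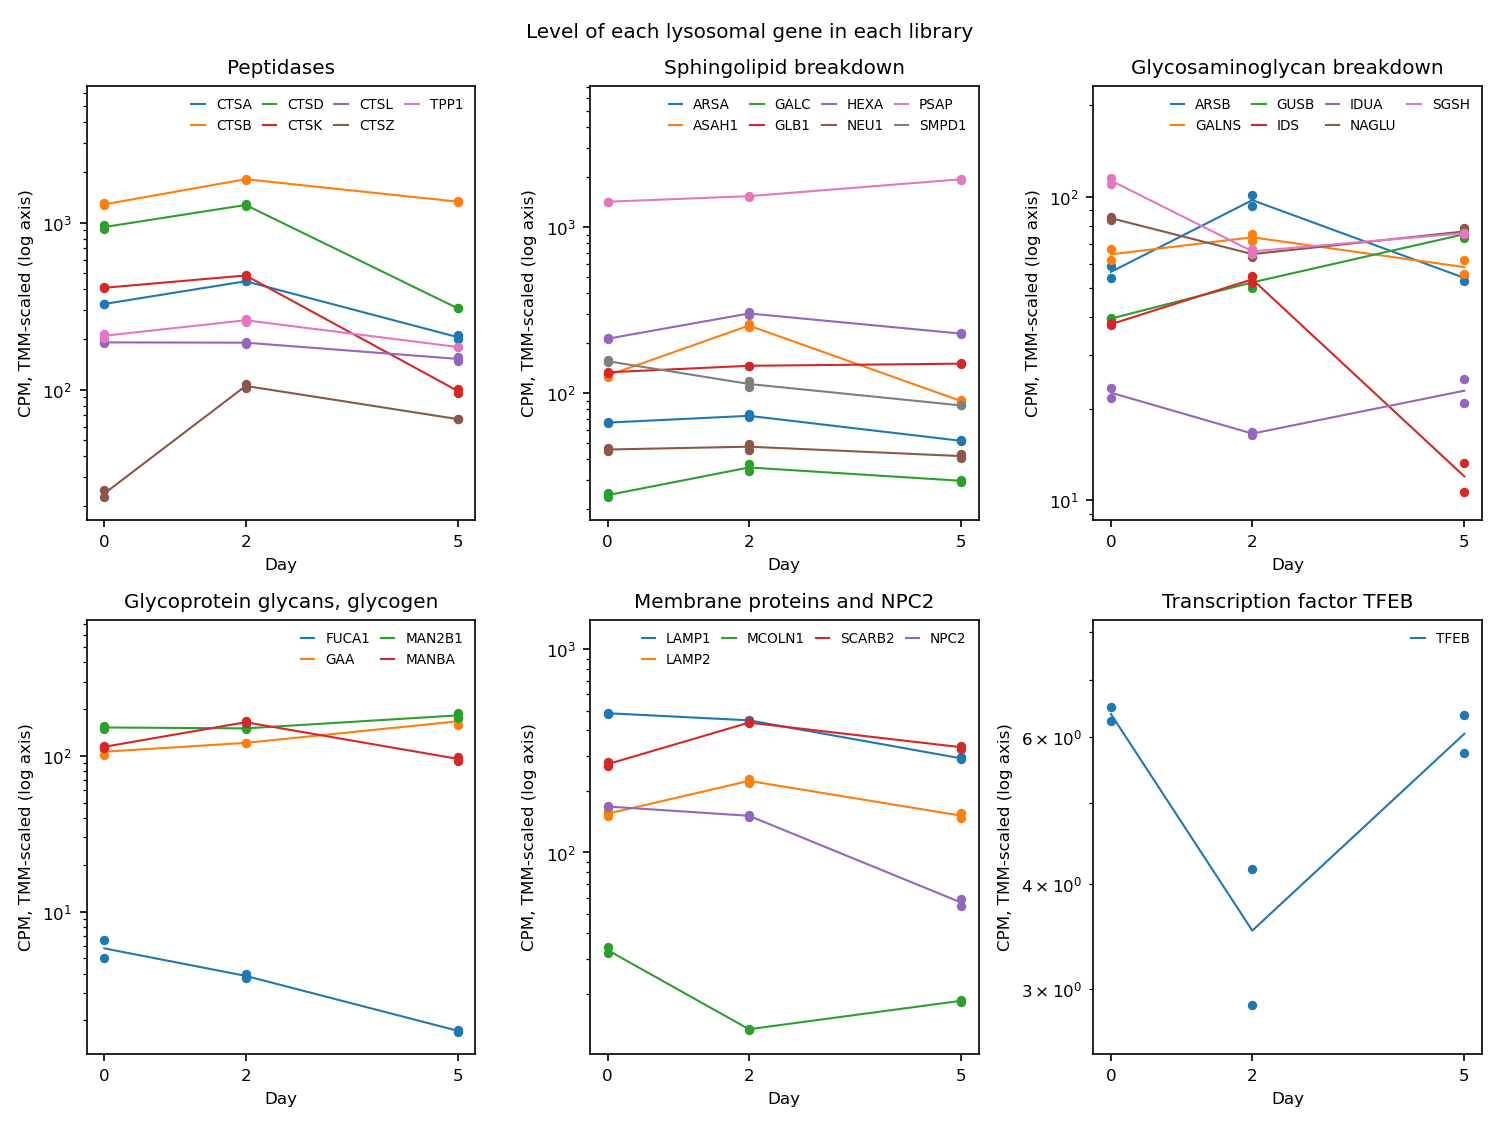
CPM (TMM-scaled, log y axis) of each of the 32 genes against day (x axis), 1 panel per role; points are the 2 libraries of a day and lines join the day means. Most peptidases peak at day 2, CTSD, CTSK, IDS and NPC2 end well under their day 0 level, and PSAP, GUSB and GAA are highest at day 5.

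Counted together, the 32 genes summed to 7412 and 7569 CPM in the day 0 libraries, 9199 and 9252 CPM in the day 2 libraries and 6614 and 6662 CPM in the day 5 libraries. Each day 2 sum lay above each day 0 sum, and each day 5 sum lay below. CTSB, PSAP and CTSD were the 3 genes with the highest CPM at day 0 and day 2. At day 5 SCARB2, with 336 and 323 CPM, stood above CTSD, with 307 and 306 CPM. CTSB, PSAP and CTSD held 48.6 and 48.8% of the sum in day 0 libraries and 50.01 and 50.3% in day 2 libraries. In day 5 libraries they held 53.9 and 54.1%. These 3 genes together had 3565 and 3604 CPM at day 5, against 3602 and 3696 CPM at day 0, while the other 29 genes together had 3049 and 3058 CPM at day 5, against 3809.7 and 3873 CPM at day 0. The 7 peptidases summed to 3332 and 3431 CPM in day 0 libraries, 4543 and 4603 CPM in day 2 libraries and 2326 and 2359 CPM in day 5 libraries. The 8 sphingolipid genes had their highest sum at day 5, with 2613 and 2627 CPM, against 2189 and 2192 CPM at day 0. Without PSAP the other 7 of them summed to 677 and 674 CPM at day 5, against 768 and 763 CPM at day 0. In the opposite direction, the membrane proteins with NPC2 summed to 856 and 839.9 CPM at day 5, against 1100.2 and 1128 CPM at day 0. Within that sum LAMP1 averaged 291 CPM at day 5 against 485 CPM at day 0, and NPC2 56.7 CPM against 168 CPM. MCOLN1 also fell, LAMP2 was not called, and SCARB2 rose, with 330 CPM at day 5 against 272 CPM at day 0. As a share of all counts of named genes, the set took 0.813 and 0.825% in day 0 libraries, 0.885 and 0.890% in day 2 libraries and 0.627 and 0.632% in day 5 libraries. A single gene outside the set, IGFBP5, took 10.7% of the counts in each day 5 library, against 0.378 and 0.380% at day 0, and leaving it out of the table changed none of the counts of calls among the 32 genes by more than 1.5 times.

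**Figure D3:**
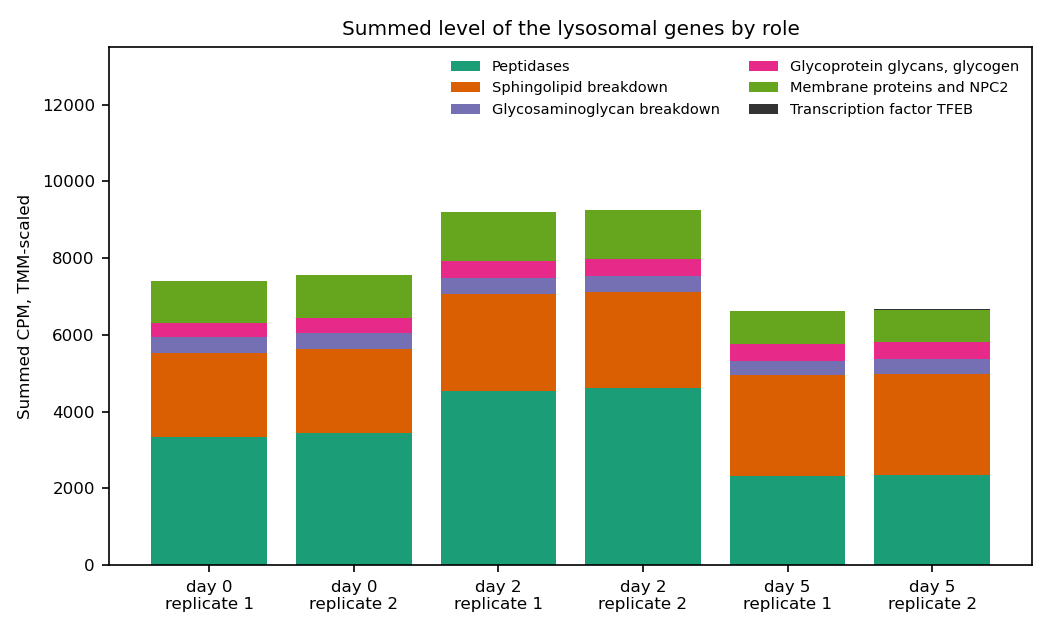
Stacked bars give the summed CPM (TMM-scaled, y axis) of the genes of each role, 1 bar for each of the 6 libraries (x axis). The peptidase sum is highest at day 2 and lowest at day 5, while the sphingolipid sum is highest at day 5, when its members other than PSAP sum to less than at day 0.

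Levels between genes can be compared per kilobase of gene length as the table gives it. On that scale (mean CPM per kb) CTSB at 634, PSAP at 503 and CTSD at 457 led at day 0, followed by CTSK at 249.7. At day 5 PSAP at 687 and CTSB at 657 led, CTSD stood at 149, and CTSK at 60.2 had moved to rank 11. FUCA1 and TFEB were the lowest at day 0 and day 2, with 2.84 and 2.76 CPM per kb at day 0, and at day 5 IDS at 1.58 and FUCA1 at 0.840 were the lowest.

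The counts by role, and those of the lists that come later, stand against the same shares of all tested genes: 33.4% were higher and 33.4% lower when day 2 was set against day 0, 35.8% higher and 34.1% lower for day 5 over day 0, and 32.1% higher and 33.7% lower for day 5 over day 2. Of the 7 peptidase genes, 6 rose and 0 fell at day 2 against day 0, 2 rose and 5 fell at day 5 against day 0, and all 7 fell at day 5 against day 2. Their median log2 fold changes were 0.44, -0.33 and -0.66.

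CTSD (chr11:1752752-1764573, minus strand) encodes cathepsin D, the main aspartic protease of the lysosome. It had 915 and 964 CPM in day 0 libraries, 1263 and 1285 CPM in day 2 libraries and 307 and 306 CPM in day 5 libraries. The day 2 libraries were the highest, the day 5 libraries were far below both other days, and no days overlapped. The gene rose at day 2 by a log2 fold change of 0.44 ± 0.02 (SE, adjusted p = 2.1e-11, edgeR quasi-likelihood test, as for the other adjusted p-values given for these genes). It then fell to 306 ± 0.995 CPM at day 5, against 939.7 ± 34.6 CPM at day 0 (mean ± SD over 2 libraries, as for all means given), a log2 fold change of -1.62 ± 0.03, or 3.07-fold lower (adjusted p = 6.6e-19). The CTSD promoter is the one shown above with a bare E-box close to its start.

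CTSK (chr1:150796208-150808323, minus strand) encodes cathepsin K, a cysteine protease with strong collagenase activity, best known from osteoclasts. It had 409 and 404 CPM in day 0 libraries, 481 and 483 CPM in day 2 libraries and 100.5 and 95.8 CPM in day 5 libraries. Both day 5 libraries were far under the other 4, and the day 2 libraries were somewhat above those of day 0. CTSK had log2 fold changes of -2.05 ± 0.03 at day 5 against day 0 (4.15-fold lower, adjusted p = 3.1e-19) and -2.30 ± 0.03 at day 5 against day 2, each the most negative of the 32 genes in that comparison.

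CTSZ (chr20:58995185-59007247, minus strand) encodes cathepsin Z, also called cathepsin X, a cysteine carboxypeptidase. It had 22.6 and 25.02 CPM in day 0 libraries, 103 and 107 CPM in day 2 libraries and 66.7 and 66.3 CPM in day 5 libraries. Each library of a later day was well above each day 0 library, with day 2 the highest. The log2 fold change was 2.14 ± 0.06 at day 2 against day 0 (4.40-fold higher, adjusted p = 1.4e-15) and 1.48 ± 0.06 at day 5 against day 0 (2.78-fold higher, adjusted p = 4.6e-13), the highest of the 32 genes in both. Day 5 was lower than day 2 (-0.66 ± 0.05 on the log2 scale, adjusted p = 4e-09).

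CTSB encodes cathepsin B, an abundant cysteine protease, and had 1266 and 1303 CPM in day 0 libraries, 1809.9 and 1824 CPM in day 2 libraries and 1322 and 1344 CPM in day 5 libraries. The day 2 libraries stood apart on the high side, while those of day 5 lay just above those of day 0. The rise at day 2 against day 0 was 0.50 ± 0.02 on the log2 scale (adjusted p = 1.3e-13). The day 5 change against day 0 was 0.05 ± 0.02 (adjusted p = 0.016), a call that was lost without day 0 replicate 1 (adjusted p = 0.39) or without day 5 replicate 2 (0.14). It was also lost with RLE factors (0.33), DESeq2 (0.89), no count filter (0.95), a fit of these days alone (0.14) or IGFBP5 left out (0.28), and the value turned negative with library totals.

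CTSA encodes cathepsin A, a serine carboxypeptidase that also protects beta-galactosidase and neuraminidase 1 in a shared complex. It had 324 and 327 CPM in day 0 libraries, 444 and 445 CPM in day 2 libraries and 201 and 211 CPM in day 5 libraries. The days did not overlap, with day 2 highest and day 5 lowest. Its partners had smaller fold changes, a difference that was not tested. At day 5 against day 2 the log2 fold change was -1.11 ± 0.03 for CTSA (adjusted p = 9.4e-16), -0.19 ± 0.06 for NEU1 (adjusted p = 0.014, lost without day 2 replicate 2 at 0.14 or day 5 replicate 2 at 0.13) and 0.04 ± 0.03 for GLB1 (adjusted p = 0.29, not called).

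CTSL encodes cathepsin L, an endopeptidase, and was the 1 peptidase gene of the set that was not called at day 2 against day 0. It had 191 and 192 CPM in day 0 libraries, 189 and 193 CPM in day 2 libraries and 149 and 156 CPM in day 5 libraries. The libraries of day 0 and day 2 overlapped, and both day 5 libraries were lower. The day 2 change against day 0 was -0.01 ± 0.03 (adjusted p = 0.88), which became a fall with library totals (-0.19, adjusted p = 5.6e-05), and at day 5 the gene fell, with -0.33 ± 0.03 (adjusted p = 1.8e-07). TPP1, an aminopeptidase lost in a form of neuronal ceroid lipofuscinosis, averaged 209.9 ± 8.38 CPM (day 0), 259.9 ± 7.38 CPM (day 2) and 179.7 ± 1.03 CPM (day 5), higher at day 2 and lower at day 5 than at day 0.

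Sphingolipids are taken apart stepwise from sugar to ceramide to sphingosine. Of the 8 sphingolipid genes, 6 rose and 1 fell at day 2 against day 0, 4 rose and 3 fell at day 5 against day 0, and 1 rose and 6 fell at day 5 against day 2, with medians of 0.13, -0.02 and -0.33.

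ASAH1, acid ceramidase, performs the last step and releases sphingosine. It had 129.9 and 126 CPM in day 0 libraries, 262 and 249 CPM in day 2 libraries and 90.3 and 88.99 CPM in day 5 libraries. The day 2 libraries were well above the day 0 libraries, and the day 5 libraries were below both. The log2 fold change was 1.00 ± 0.04 at day 2 against day 0 (adjusted p = 9.1e-14), -0.51 ± 0.04 at day 5 against day 0 (adjusted p = 5e-09) and -1.51 ± 0.04 at day 5 against day 2 (2.85-fold lower, adjusted p = 9.6e-16). 

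PSAP encodes prosaposin, the precursor of the saposins, small proteins that lift lipids out of membranes for the hydrolases. It had 1420.3 and 1429 CPM in day 0 libraries, 1528 and 1549 CPM in day 2 libraries and 1936 and 1953 CPM in day 5 libraries. It was the 1 gene of this role that was called higher at day 5 than at day 2, and its days did not overlap. Its log2 fold change at day 5 against day 0 was 0.45 ± 0.02 (adjusted p = 8.2e-14), and the rise at day 2 against day 0 (0.11 ± 0.02, adjusted p = 1.1e-05) turned negative with library totals.

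SMPD1, acid sphingomyelinase, which makes ceramide from sphingomyelin, fell at both later days. It averaged 156 ± 2.19 CPM (day 0), 114 ± 5.997 CPM (day 2) and 84.3 ± 0.0197 CPM (day 5), and its log2 fold change between day 5 and day 0 was -0.89 ± 0.04 (adjusted p = 5.6e-12). HEXA, the alpha subunit of hexosaminidase A, which removes a sugar from GM2 ganglioside, averaged 213 ± 2.05 CPM (day 0), 302 ± 7.07 CPM (day 2) and 228 ± 1.89 CPM (day 5). Its rise at day 2 against day 0 was 0.51 ± 0.03 (adjusted p = 5.3e-11), and the call at day 5 against day 0 (0.10 ± 0.03) was lost without day 0 replicate 1 (adjusted p = 0.073), with DESeq2 (0.0526, adjusted p = 0.20) or with no count filter (0.0525, adjusted p = 0.22), and turned negative with library totals.

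Log2 fold changes of the other 4 genes stand in parentheses. GALC, which splits galactosylceramide, rose at day 2 (0.55) and at day 5 (0.29) against day 0, and the day 5 call was lost with library totals (0.0807, adjusted p = 0.36). GLB1, beta-galactosidase, whose activity is a common marker of senescent fibroblasts, rose at day 2 (0.13) and at day 5 (0.17) against day 0, and both values turned negative with library totals. ARSA, which removes sulfate from sulfatide, rose at day 2 (0.13) and fell at day 5 (-0.37) against day 0. The day 2 call was lost without day 0 replicate 1 (adjusted p = 0.10), day 0 replicate 2 (0.051) or day 2 replicate 1 (0.14). It was also lost with DESeq2 (adjusted p = 0.11), and the value reversed with library totals. NEU1, which removes sialic acid, was not called at day 2 (0.06, adjusted p = 0.39) or at day 5 (-0.13, adjusted p = 0.073) against day 0. Under 7 other settings it was called lower at day 5 against day 0, with adjusted p-values of 0.028 (RLE factors), 0.00015 (library totals), 0.042 (DESeq2), 0.015 (no count filter), 0.036 (a fit of these days alone), 0.03 (IGFBP5 left out) and 0.049 (without day 5 replicate 1).

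Enzymes of the next group remove sulfate groups and sugars from heparan, dermatan and keratan sulfate chains. Of the 7 genes of glycosaminoglycan breakdown, 4 rose and 3 fell at day 2 against day 0, 1 rose and 4 fell at day 5 against day 0, and 4 rose and 3 fell at day 5 against day 2. Their medians of 0.18, -0.14 and 0.20 hide opposite courses of single genes.

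IDS (chrX:149476990-149521096, minus strand) encodes iduronate-2-sulfatase, which removes the sulfate of iduronate at the chain ends of heparan and dermatan sulfate. It had 38.3 and 37.8 CPM in day 0 libraries, 54.8 and 51.98 CPM in day 2 libraries and 10.7 and 13.3 CPM in day 5 libraries. The day 5 libraries were well below the other 4 and the day 2 libraries were the highest. The log2 fold change was 0.49 ± 0.07 at day 2 against day 0 (adjusted p = 5.6e-06), -1.66 ± 0.09 at day 5 against day 0 (3.15-fold lower, adjusted p = 2.3e-11) and -2.15 ± 0.09 at day 5 against day 2 (adjusted p = 5e-13). IDUA, alpha-iduronidase, acts on the same chains right after it, yet averaged 22.6 ± 1.20 CPM (day 0), 16.6 ± 0.263 CPM (day 2) and 22.97 ± 2.88 CPM (day 5), lower at day 2 (-0.45, adjusted p = 0.00048) and not called at day 5 against day 0 (0.02, adjusted p = 0.84). IDS has a named pseudogene, IDSP1, and it overlaps a longer gene on the same strand, AC244197.3, so its values can depend on how shared reads were divided. AC244197.3 had 92.5 and 87.3 CPM at day 5, against 83.2 and 81.6 CPM at day 0, and the sum of both genes was 103 and 101 CPM at day 5, against 121 and 119 CPM at day 0. The part of this overlap in the fall of IDS was not tested.

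GUSB, beta-glucuronidase, rose at each step. It had 39.8 and 39.6 CPM in day 0 libraries, 50.1 and 54.2 CPM in day 2 libraries and 77.4 and 72.9 CPM in day 5 libraries, with no overlap between days. Its log2 fold change of 0.92 ± 0.06 at day 5 against day 0 (adjusted p = 1.6e-10) was the second highest of the 32 genes after CTSZ. GUSB also has named pseudogenes.

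SGSH and NAGLU, which remove the N-sulfate and the N-acetylglucosamine of heparan sulfate, fell at both later days against day 0. SGSH averaged 113 ± 3.51 CPM (day 0), 66.04 ± 1.58 CPM (day 2) and 75.8 ± 0.305 CPM (day 5), a log2 fold change of -0.77 ± 0.04 at day 2 against day 0 (adjusted p = 5e-11) and -0.58 ± 0.04 at day 5 against day 0 (adjusted p = 3.5e-09). For NAGLU the changes were -0.39 ± 0.05 (adjusted p = 9.7e-07) and -0.15 ± 0.05 (adjusted p = 0.012), and the call at day 5 was lost without day 0 replicate 2 (0.058) or day 5 replicate 2 (0.12). ARSB, which removes the 4-sulfate of dermatan and chondroitin sulfate, rose at day 2 against day 0 (0.78 ± 0.05, adjusted p = 1.1e-09) and was not called at day 5 against day 0 (-0.07 ± 0.06, adjusted p = 0.34), where library totals gave a fall (-0.27, adjusted p = 0.00073). GALNS, a 6-sulfatase of keratan sulfate, had small calls at day 2 (0.18) and at day 5 (-0.14) against day 0. Each was lost when either of 2 libraries was left out. The highest adjusted p was 0.12 at day 2, without day 0 replicate 1, and 0.40 at day 5, without day 5 replicate 2. The day 5 call was also lost with a stricter count filter (0.073), and the day 2 value reversed with library totals.

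FUCA1, the alpha-fucosidase of glycoprotein breakdown, was among the lowest of the set, with 167 and 146 expected counts in day 0 libraries, 90 and 107 in day 2 libraries and 29 and 31 in day 5 libraries. Scaled to CPM, day 0 had 6.59 and 5.02, day 2 had 3.75 and 3.98 and day 5 had 1.74 and 1.69, so the days did not overlap and day 5 was the lowest. It was 3.37-fold lower at day 5 than at day 0, a log2 fold change of -1.75 ± 0.23 (adjusted p = 2.6e-06). Its fall at day 2 (-0.58 ± 0.19, adjusted p = 0.013) was lost without day 0 replicate 1 (0.17) or day 2 replicate 1 (0.068), or with DESeq2 (0.053). The gene also has a named pseudogene.

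GAA, acid alpha-glucosidase, which degrades glycogen and whose promoter holds the pair of long CLEAR matches shown above, had 102 and 111 CPM in day 0 libraries, 122 and 121 CPM in day 2 libraries and 159 and 175 CPM in day 5 libraries. It was highest at day 5, with no overlap between days. GAA had a log2 fold change at day 5 against day 0 of 0.65 ± 0.05 (adjusted p = 1.8e-09), while the smaller rise at day 2 (0.19 ± 0.05, adjusted p = 0.0022) was lost without day 0 replicate 1 (0.059) or with library totals (0.00262 on the log2 scale, adjusted p = 0.96). The mannosidase genes had different calls. MANBA, the beta-mannosidase, rose at day 2 (0.53) and fell at day 5 (-0.26) against day 0, while MAN2B1, the alpha-mannosidase, was not called at day 2 (-0.02, adjusted p = 0.66) and rose at day 5 (0.26, adjusted p = 1.2e-05). With library totals MAN2B1 was called lower at day 2 (-0.20, adjusted p = 0.00012) and its day 5 rise was lost (0.0524, adjusted p = 0.23).

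**Figure D4:**
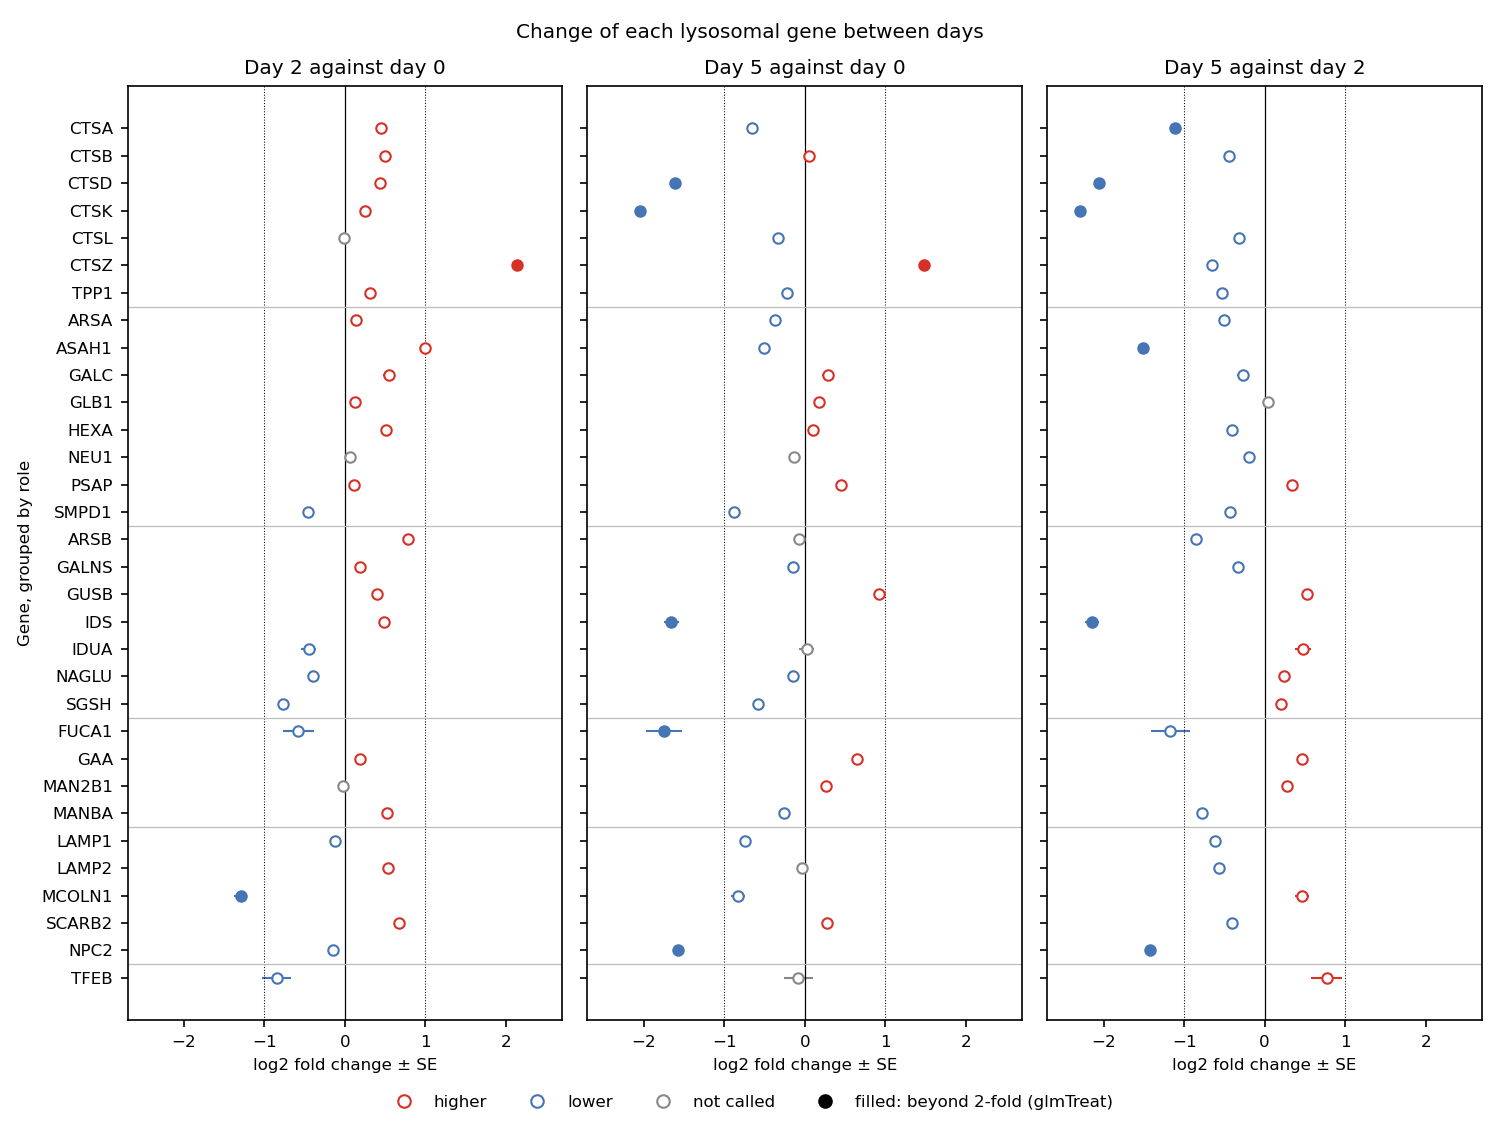
Log2 fold change with SE of each of the 32 genes (y axis, grouped by role) at day 2 against day 0, day 5 against day 0 and day 5 against day 2 (x axis); coloured points were called at an adjusted p under 0.05 and filled points also beyond 2-fold. CTSZ reaches 2.14 at day 2 against day 0 and CTSK reaches -2.30 at day 5 against day 2.

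LAMP1 (chr13:113297241-113323672, plus strand) and LAMP2 encode the most abundant glycoproteins of the lysosomal membrane, and LAMP2 also makes the receptor of chaperone-mediated autophagy. LAMP1 had 482 and 488 CPM in day 0 libraries, 445 and 450.0 CPM in day 2 libraries and 294 and 288 CPM in day 5 libraries, so day 5 was clearly the lowest and day 2 lay slightly under day 0. LAMP2 had 152 and 158 CPM in day 0 libraries, 229 and 221 CPM in day 2 libraries and 148 and 156 CPM in day 5 libraries, so day 2 was the highest and the day 5 and day 0 libraries overlapped. LAMP1 fell at day 2 (-0.12 ± 0.02, adjusted p = 0.00027) and at day 5 (-0.74 ± 0.02, adjusted p = 2.4e-14) against day 0. LAMP2 rose at day 2 (0.54 ± 0.03, adjusted p = 4.1e-10) and was not called at day 5 (-0.03 ± 0.04, adjusted p = 0.47), where library totals gave a fall (-0.24, adjusted p = 2.4e-05).

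SCARB2, also called LIMP-2, is an abundant protein of the lysosomal membrane that also serves as a sorting receptor. It had 266 and 278 CPM in day 0 libraries, 439 and 433 CPM in day 2 libraries and 336 and 323 CPM in day 5 libraries, higher at both later days than at day 0. Its log2 fold change was 0.68 ± 0.03 at day 2 (adjusted p = 8.6e-13) and 0.28 ± 0.03 at day 5 (adjusted p = 2.2e-07) against day 0.

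NPC2 (chr14:74476192-74494177, minus strand) is the soluble carrier that hands cholesterol to NPC1 in the lysosomal membrane. It had 168 and 169 CPM in day 0 libraries, 149.8 and 153 CPM in day 2 libraries and 59.02 and 54.5 CPM in day 5 libraries. The day 5 libraries were far under the other 4, and the day 2 libraries lay a little under those of day 0. The fall at day 5 against day 0 was 2.97-fold, a log2 fold change of -1.57 ± 0.04 (adjusted p = 1.8e-15). NPC1, outside the set, was higher at day 2 (0.49) and lower at day 5 (adjusted p = 7.2e-12), with 46.3 ± 1.66 CPM at day 5 against 92.3 ± 0.00352 CPM at day 0.

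MCOLN1 (chr19:7522626-7534009, plus strand) encodes mucolipin 1, the calcium channel of the lysosomal membrane whose calcium release activates calcineurin and, through it, TFEB. It had 32.03 and 34.1 CPM in day 0 libraries, 13.6 and 13.4 CPM in day 2 libraries and 18.8 and 18.5 CPM in day 5 libraries. Both later days were well below day 0, with day 2 the lowest and no overlap. The log2 fold change was -1.29 ± 0.08 at day 2 against day 0 (2.45-fold lower, adjusted p = 2.6e-10), -0.83 ± 0.08 at day 5 against day 0 (adjusted p = 9.2e-08) and 0.46 ± 0.09 at day 5 against day 2 (adjusted p = 0.00026). Its annotated end overlaps the gene PNPLA6 on the same strand, so reads of the neighbour could be counted with it.

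TFEB (chr6:41683978-41736259, minus strand) had 165 and 182 expected counts in day 0 libraries, 69 and 112 in day 2 libraries and 106 and 105 in day 5 libraries. Scaled to CPM, day 0 had 6.51 and 6.25, day 2 had 2.87 and 4.17 and day 5 had 6.36 and 5.73, so day 2 was the lowest, its libraries differed most from each other, and the day 5 and day 0 libraries overlapped. TFEB fell to 3.52 ± 0.915 CPM at day 2, against 6.38 ± 0.180 CPM at day 0 (mean ± SD), a log2 fold change of -0.85 ± 0.19 (adjusted p = 0.00068). It was not called at day 5 against day 0 (-0.08 ± 0.18, adjusted p = 0.71). TFE3, a relative that binds the same element, averaged 189.7 ± 5.30 CPM (day 0), 103 ± 0.930 CPM (day 2) and 112 ± 1.12 CPM (day 5), and fell at both later days (-0.88 at day 2 and -0.76 at day 5). MITF, the third of these factors, averaged 41.6 ± 0.701 CPM (day 0), 45.7 ± 1.03 CPM (day 2) and 11.1 ± 1.87 CPM (day 5), and fell at day 5 against day 0 (-1.91 ± 0.09, adjusted p = 3.9e-12). TFEB and TFE3 act mainly by moving between cytoplasm and nucleus, which RNA levels do not measure. Of the 8 genes with an E-box in the promoter window, 5 rose and 2 fell at day 2 against day 0, and 1 rose and 5 fell at day 5 against day 0. Of the 14 others with a promoter in the table, 7 rose and 5 fell at day 2, and 6 rose and 6 fell at day 5, where 33.4% of all tested genes rose and 33.4% fell at day 2 and 35.8% rose and 34.1% fell at day 5. These small counts are given as a description and the difference between them was not tested.

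The same comparisons were read for 6 lists of lysosome-related genes outside the set. Single values in parentheses are log2 fold changes at day 5 against day 0. The V-ATPase, the proton pump that acidifies the lysosome, was mostly lower at day 5. Of its 15 subunit genes, 4 rose and 9 fell at day 2 against day 0, and 1 rose and 14 fell at day 5 against day 0 (median -0.91), 7 of them beyond 2-fold (46.7%, against 10.3% of all tested genes). ATP6V1D, of the rotor stalk, averaged 27.1 ± 1.68 CPM at day 5 against 83.98 ± 3.96 CPM at day 0, and ATP6V1A, the catalytic subunit, 48.3 ± 3.77 CPM at day 5 against 117 ± 1.38 CPM at day 0. ATP6V0E1 had a log2 fold change of -1.49. The single subunit gene that was called higher was ATP6V0B (0.13, adjusted p = 0.018). It was not called higher with library totals, RLE factors, DESeq2, no count filter or IGFBP5 left out. The call was also lost when either day 0 library or day 5 replicate 2 was left out.

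Of 21 further lysosomal genes, mostly of hydrolases and cofactors, 8 rose (38.1%) and 6 fell (28.6%) at day 2 against day 0. Both were near the 33.4% in each direction of all tested genes. At day 5 against day 0, 6 rose (28.6%, against 35.8%) and 10 fell (47.6%, against 34.1%). CTSC, dipeptidyl peptidase 1, averaged 1429 ± 3.94 CPM at day 5 against 621 ± 7.21 CPM at day 0, a log2 fold change of 1.20 ± 0.02 (adjusted p = 7.2e-19), opposite in direction to CTSD and CTSK. ACP2, an acid phosphatase (1.20), and CTSO, another cysteine cathepsin (0.58), also rose. PLA2G15, the lysosomal phospholipase A2 (-1.95), fell. Of 12 further membrane genes, 5 rose and 4 fell at day 2, and 2 rose and 6 fell at day 5 against day 0. LAPTM4A, a small multispanning membrane protein, rose to 1118 ± 10.3 CPM at day 5, against 467 ± 7.47 CPM at day 0, and the cystine exporter gene CTNS rose by 0.42. NPC1, CLN3 (-0.72) and the sialic acid exporter gene SLC17A5 (-0.70) fell.

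All 7 genes of enzyme targeting fell at day 5 against day 0 (median -0.55), after 2 had risen and 4 fallen at day 2. The 2 that rose at day 2 became 1 with RLE factors, DESeq2, another count filter or IGFBP5 left out, 1 when either day 0 library or day 2 replicate 1 was left out, and 0 with library totals. The 7 genes include GNPTAB (-0.84), which adds the mannose 6-phosphate tag together with NAGPA (-0.73), and the sorting receptor gene SORT1 (-1.09). Of 17 relatives and regulators of TFEB 15 could be tested, of which 2 rose and 9 fell at day 2, and 3 rose and 7 fell at day 5 against day 0. The fallers include RPTOR (-0.84), a subunit of the kinase complex mTORC1 that holds TFEB in the cytoplasm, and RRAGC (-1.17), a GTPase that brings mTORC1 to the lysosome. RRAGB (0.47), LAMTOR2 (0.32) and LAMTOR5 (0.25), of the same docking machinery, rose.

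Of 17 autophagy genes, 9 rose and 3 fell at day 2 against day 0 (median 0.39), and 5 rose and 11 fell at day 5 against day 0 (median -0.29). WIPI1, a lipid-binding protein of early autophagosomes, averaged 100.4 ± 1.096 CPM (day 0), 340.1 ± 0.560 CPM (day 2) and 256 ± 4.08 CPM (day 5), a log2 fold change of 1.76 ± 0.03 at day 2 against day 0 (adjusted p = 4e-18). ULK1, the initiating kinase, rose by 1.17 at day 5, and GABARAPL1 by 0.57. The cargo receptors fell at day 5: OPTN by a log2 fold change of -2.23 ± 0.04 (adjusted p = 5.6e-18) and SQSTM1 by -1.32 ± 0.02 (adjusted p = 6.1e-19), with 481 ± 7.58 CPM at day 5 against 1201 ± 13.5 CPM at day 0. VPS18, of a tethering complex for lysosomal fusion, fell as well (-0.81).

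**Figure D5:**
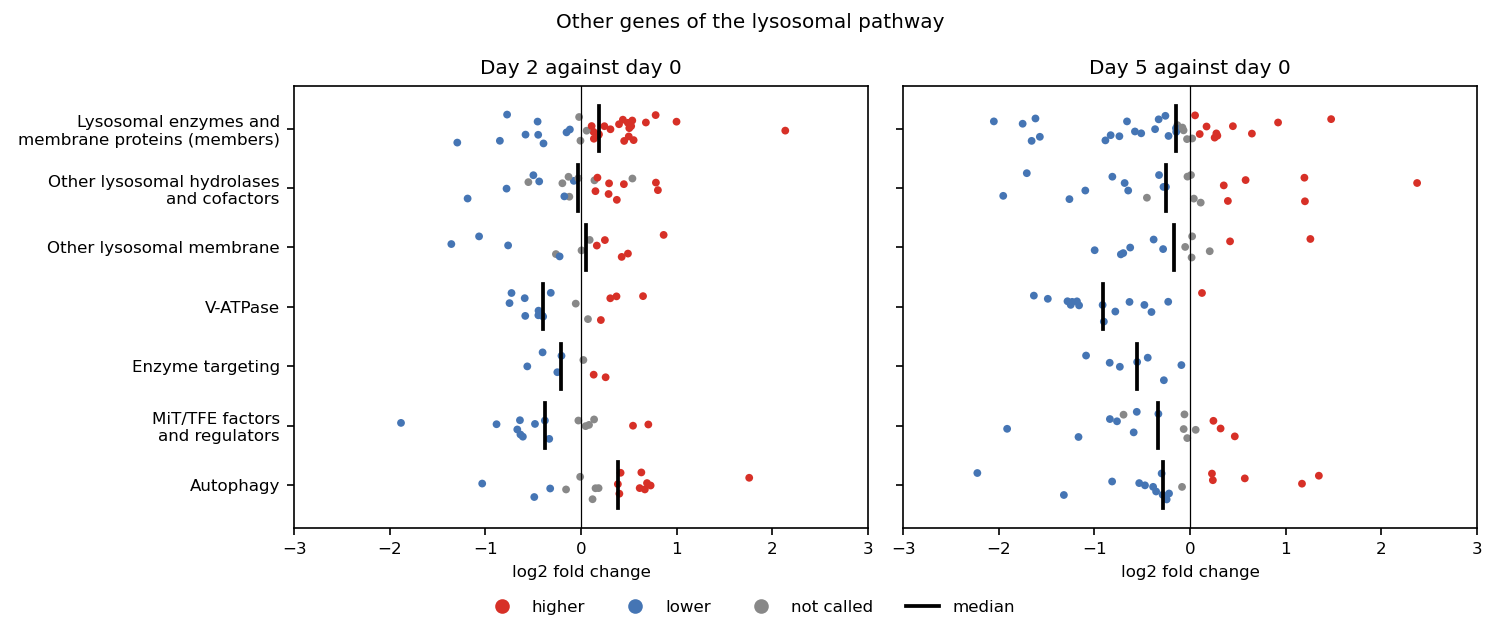
Log2 fold change (x axis) of the 32 genes and of the 6 pathway lists (rows) at day 2 and at day 5 against day 0; each point is 1 tested gene, coloured by its call, and bars mark the list medians. At day 5 the V-ATPase median is -0.91 and the targeting median -0.55, against 0.04 for all tested genes.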

How the data were processed

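RNA was measured in 6 libraries of 3 groups, taken from the day in the sample titles. The deposited values are expected counts per gene, estimated by the authors and left unscaled between libraries, per the file headers and the values (87.2% were whole). Reads were placed on GRCh38, the build that the submitters' processing notes name. The aligner, counter, annotation release and strand setting are not given in the sources used here, so reads of overlapping or antisense genes cannot be told apart. That touches CTSA, GALNS, IDUA, NPC2, SCARB2 and SGSH, which overlap protein-coding genes on the other strand, and 13 genes that overlap a gene on their own strand, of which IDS, CTSD, MCOLN1, MAN2B1 and GLB1 have such a neighbour with at least 20 counts in each library. How reads of near-identical copies were shared is unknown, which touches CTSL, FUCA1, GUSB and IDS, with at least 1 named pseudogene each.

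Expected counts were rounded to whole numbers. The 172 rows without a gene name (0.0356 to 0.0475% of a library's counts) were left out. All libraries entered 1 fit by day with edgeR 4.0.16 under R 4.3.3 (TMM factors, quasi-likelihood test, 3 residual degrees of freedom). Its filterByExpr, set to a minimum count of 10 and a minimum total of 15, left 16327 genes. P-values of each comparison were Benjamini-Hochberg adjusted over those genes, and a gene was called if this gave less than 0.05. For changes beyond 2-fold, glmTreat was run with its limit at 1 on the log2 scale. Tests are two-sided, and the SE of a log2 fold change was derived from its F statistic (absolute value over the root of F). Steps were tested on simulated data. The common biological coefficient of variation was 3.33%. Comparisons against day 0 share its libraries, and both day 5 comparisons share those of day 5.

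The 32 genes and the pathway and marker lists were chosen with earlier results of these data known. All 32 are named. Genes past the 2-fold test, and TFEB, LAMP1, LAMP2, CTSD, CTSB, CTSL, CTSK and NPC2, have their value in each library. From each pathway list the rule took up to 3 called genes in each direction with the largest log2 fold change at day 5 against day 0 and a mean of at least 5 CPM, and always TFE3 and MITF. The results of some genes that this rule takes are not reported here. Coordinates are those of GENCODE release 29 on GRCh38, matched for 32 of 32 genes by identifier, and promoter sequences are RefSeq's on GRCh38.p14. The other settings tried were RLE factors, library totals, DESeq2 1.42.0, no count filter, a stricter filter (4 or more libraries with 1 CPM), separate fits of the days compared, the replicate number as a block, leaving out IGFBP5 and leaving out each library. The pathway list counts under these settings were added after seeing the data.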

Additional observations from a re-analysis of the deposited data

How the results depend on the processing

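Of 96 fold changes (32 genes in 3 comparisons), 76 kept their call as higher, lower or not called under each setting tried. The sign of a change that was called under neither of the settings compared was not checked. With library totals in place of TMM factors, 7 of the called fold changes took the opposite sign. These were, at day 2 against day 0, ARSA (-0.0499), GALNS (-0.000774), GLB1 (-0.0535) and PSAP (-0.0734), and at day 5 against day 0, CTSB (-0.15), GLB1 (-0.0325) and HEXA (-0.10), because those totals lower all log2 fold changes of a comparison by a common amount. No other setting reversed a fold change that was called. With library totals, 5 genes rather than 10 were higher at day 5 against day 0, and the share of calls that were higher was 18.5% in place of 37.0% there and 55.6% in place of 69.0% at day 2. The counts of higher and lower genes otherwise stayed within 1.5 times their value. Of the pathway list counts, library totals moved several at day 2 against day 0. They gave 10 genes of the further hydrolase list lower in place of 6, and 3 further membrane genes higher in place of 5. They also gave 2 V-ATPase genes higher in place of 4 and 5 autophagy genes lower in place of 3. At day 5 they gave 1 further membrane gene higher in place of 2 (1 also without day 0 replicate 1), 1 TFEB relative or regulator higher in place of 3, and 3 autophagy genes higher in place of 5.

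The median log2 fold change of the 32 genes at day 2 against day 0 was 0.000923 with library totals and ran from 0.13 (without day 0 replicate 1) to 0.24 (without day 0 replicate 2) when libraries were left out. At day 5 against day 0 it was -0.35 with library totals, -0.19 with DESeq2 and -0.19 with no count filter, and ran from -0.21 to -0.11 with a library left out. At day 5 against day 2 it was -0.45 with no count filter and ran from -0.44 to -0.42 with a library left out. The cause of the moves with DESeq2 and with no count filter was not tested.

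Same-numbered libraries of different days deviated together with correlations of 0.03, 0.05 and 0.07 over 9397 genes. With 2 libraries per day these deviations can be mostly counting noise. Whether same-numbered libraries share an origin therefore cannot be told from them. With the replicate number as a block, no call changed: 20 genes were still higher and 9 lower for day 2 against day 0, 10 higher and 17 lower for day 5 against day 0, and 9 higher and 22 lower for day 5 against day 2. With 2 libraries per day, small changes near the threshold were the least certain, and depth limited FUCA1 most, with 29 and 31 counts at day 5.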

Other observations

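The annotation in the deposited table assigns further genes to the lysosomal lumen, among them proteoglycans that pass through it to be degraded. Outside the 32 genes, 65 such genes were tested. Of these, 23 rose and 31 fell at day 5 against day 0 (edgeR quasi-likelihood test, Benjamini-Hochberg adjusted p under 0.05). Among all tested genes 35.8% rose and 34.1% fell. The median log2 fold change of the 65 was -0.25. At day 2 against day 0, 16 rose and 25 fell (median -0.13), unlike the 32 genes, of which 20 rose and 9 fell. Among all tested genes 33.4% rose and 33.4% fell there. Outside the 32 genes, 285 genes assigned to the lysosomal membrane were also tested. Of these, 86 rose and 127 fell at day 2 (median -0.13), and 66 rose and 154 fell at day 5 (median -0.35), each against day 0. The 65 lumen genes include pseudogenes, genes with few counts, and genes that overlap 1 of the 32 on its strand, such as AC244197.3 with IDS. The genes named below were chosen after their values were seen, and their means are given with the SD over 2 libraries. VCAN, the large chondroitin sulfate proteoglycan versican, averaged 82.1 ± 0.344 CPM at day 0, 706 ± 5.68 CPM at day 2 and 1476 ± 25.2 CPM at day 5. The heparan sulfate proteoglycan gene GPC6 rose as well, with 127 ± 4.60 CPM at day 5 against 25.04 ± 0.317 CPM at day 0. DCN, the small proteoglycan decorin, fell to 202 ± 1.71 CPM at day 5, against 1044 ± 8.40 CPM at day 0, and HSPG2, perlecan, to 116 ± 1.73 CPM at day 5, against 485 ± 17.1 CPM at day 0. Among lumenal enzymes, NAAA, an acid amidase, fell to 7.38 and 6.28 CPM in the day 5 libraries, against 32.7 and 34.1 CPM in the day 0 libraries, and IFI30, the thiol reductase GILT, to 0.120 and 0.328 CPM at day 5, against 18.7 and 20.8 CPM at day 0.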
